A study of Mus musculus with 16 samples.

Results

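The genes described here mark the oligodendrocyte lineage and its product, myelin, in the adult mouse brain. Of 30 genes listed for this lineage, 29 were matched to an array probe set whose only gene symbol in the platform annotation was that gene, among 19938 genes tested in all. They divide into 20 genes of mature, myelin-forming cells and 9 genes of precursors and lineage commitment. The choice rests on gene symbols alone, and each matched gene had 1 probe set. Evi2a was listed but not tested, because its probe set carries several symbols.

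Whole brain of male mice aged 8 weeks was profiled with 1 Affymetrix Mouse Gene 1.0 ST array per sample, 16 in all. There were 4 groups of 4 arrays: mice labelled TNF knockout and C57BL/6 mice, each either naive or taken 24 h after pMCAO, the permanent closure of a middle cerebral artery that models ischaemic stroke. No sham-operated mice are among the labels, so a difference between stroke and naive arrays includes the surgery. The sources used here do not name the knockout allele or its background strain. Each array has a replicate number but no named animal, so p-values measure the spread between samples that may be technical replicates. In RNA from whole tissue, fewer cells of a type and less RNA per cell cannot be told apart.

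Oligodendrocytes wrap axons in myelin, a stack of membrane rich in lipid and held together by a small set of abundant proteins. They arise from precursor cells that carry the growth factor receptor Pdgfra and the proteoglycan Cspg4, pass through a short committed stage marked by Gpr17 and Enpp6, and then switch on the myelin genes under the transcription factors Olig1, Olig2, Sox10 and Myrf. Oligodendrocytes and white matter are sensitive to ischaemia. Tumour necrosis factor, the product of Tnf, is an inflammatory cytokine made mainly by microglia and macrophages, and its receptors are present on glia.

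Tnf, the targeted gene, read higher in the arrays labelled TNF knockout, by 1.24 after stroke (limma, adjusted p = 0.00010) and by 1.11 in naive mice (limma, adjusted p = 0.00056). The sources used here do not say whether the probe set lies inside the deleted stretch, so the groups are named by their label (TNFko-labelled). An exchange of the genotype labels and a transcript that the probe set still reads cannot be told apart here. With exchanged labels the sign of every genotype difference given below would turn. The sample names carry prefixes of unstated meaning: KL42 on all 8 C57BL/6 arrays, KL76 on TNFko-labelled stroke array 1 and naive arrays 1 to 3, and KL82 on TNFko-labelled stroke arrays 2 to 4 and naive array 4. Genotype label and prefix KL42 therefore cannot be told apart. Among the TNFko-labelled arrays most naive ones carry KL76 and most stroke ones KL82, so stroke and prefix are largely mixed there. This bears on every comparison that uses the stroke change of that label. Array medians were 6.01 to 6.05 on the log2 scale, and correlations between arrays of a group were 0.991 to 0.996. Neuron markers, which define brain tissue, had a mean signal of 10.75 to 10.92 over 14 genes on every array. Markers of Schwann cells, which make myelin in peripheral nerve, averaged 5.71 to 6.00 over the 6 genes tested.

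The sequences upstream of some members are shown, chosen by the lowest and highest values between the genotype labels. They are the 250 bases before the RefSeq start in GRCm38.p6 of the 4 mature genes with the lowest values in the TNFko-labelled arrays relative to C57BL/6 over both conditions, followed by Pdgfra, the member with the highest. The windows are chr3:102734520-102734769 on the plus strand for Tspan2, chr3:31149670-31149919 on the plus strand for Cldn11, chr2:127656696-127656945 on the minus strand for Mal, chr11:100574689-100574938 on the plus strand for Cnp and chr5:75152001-75152250 on the plus strand for Pdgfra. Each is printed 5′ to 3′ on the gene's strand, with any match to a searched motif in capitals.
Tspan2: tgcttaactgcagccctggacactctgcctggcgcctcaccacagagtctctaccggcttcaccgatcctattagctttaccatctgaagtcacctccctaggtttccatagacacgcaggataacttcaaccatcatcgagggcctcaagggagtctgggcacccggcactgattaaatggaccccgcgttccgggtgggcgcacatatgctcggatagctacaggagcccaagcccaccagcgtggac
Cldn11: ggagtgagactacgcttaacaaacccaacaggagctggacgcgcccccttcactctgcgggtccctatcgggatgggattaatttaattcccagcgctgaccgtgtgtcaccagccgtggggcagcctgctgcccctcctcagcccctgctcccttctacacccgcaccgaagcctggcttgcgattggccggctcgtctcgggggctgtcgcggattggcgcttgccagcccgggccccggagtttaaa
Mal: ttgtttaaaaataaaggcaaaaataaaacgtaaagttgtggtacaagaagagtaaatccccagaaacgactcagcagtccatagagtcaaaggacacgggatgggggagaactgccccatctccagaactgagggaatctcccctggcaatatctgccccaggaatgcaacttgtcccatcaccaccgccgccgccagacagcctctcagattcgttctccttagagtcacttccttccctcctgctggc
Cnp: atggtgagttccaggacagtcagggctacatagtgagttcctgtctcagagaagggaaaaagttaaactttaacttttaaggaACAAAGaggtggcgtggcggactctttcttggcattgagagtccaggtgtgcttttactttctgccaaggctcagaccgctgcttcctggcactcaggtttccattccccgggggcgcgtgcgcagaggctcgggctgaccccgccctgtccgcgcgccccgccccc
Pdgfra: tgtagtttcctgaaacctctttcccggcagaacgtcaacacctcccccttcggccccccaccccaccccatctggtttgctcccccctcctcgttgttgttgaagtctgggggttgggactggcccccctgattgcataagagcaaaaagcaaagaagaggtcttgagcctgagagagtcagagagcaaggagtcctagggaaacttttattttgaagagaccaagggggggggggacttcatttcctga
The motifs searched on both strands were CAGCTG, an E-box of the kind that Olig proteins bind, and ACAAAG and ACAATG, cores of sites for Sox proteins. CAGCTG is its own reverse complement, and the other motifs share their first letters but differ in the fifth, so they do not match at the same place on the same strand. Only the Cnp window of these 5 held a match, an ACAAAG that begins 167 bases before the start. Tspan2 has 2 windows, of which the one with the lower coordinate is printed. Its other window, not printed, held 1 ACAAAG. The table held 29 windows for 22 members, some of which have several starts. Of these 29 windows 1 held CAGCTG, 9 held ACAAAG and 4 held ACAATG. Among all 32851 windows of this length the shares were 13.0%, 16.5% and 10.7%. A match describes the letters of the window and no more. No window was found for Sox10, Olig1, Myrf, Car2, Evi2a, Gpr17, Mbp and Fa2h.

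The comparison of stroke with naive asks whether lineage and myelin transcripts had changed in whole brain 24 h after the occlusion. In the TNFko-labelled arrays 0 of 29 members passed the threshold (limma, adjusted p under 0.05), against 0.642% of all genes, and 6 members had an unadjusted p under 0.05, against 8.39% of all genes. The differences were mostly small and below 0: 26 of 29 were negative, with a median of -0.11 on the log2 scale. Over all genes 49.9% were negative and the median was 0.

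Among the enzymes of myelin lipid synthesis, Ugt8a, which makes galactosylceramide, had the lowest difference in these arrays. It read 8.71, 9.49, 9.46 and 9.27 in TNFko-labelled stroke arrays, against 9.60, 9.87, 9.59 and 9.74 in TNFko-labelled naive arrays. Every stroke array lay below every naive array, and array 1 was the lowest by far. The difference was -0.47 ± 0.16 (SE, n = 4 per group, limma, adjusted p = 0.33). Fa2h, which hydroxylates the fatty acids of these lipids, differed by -0.17 ± 0.12 and Aspa, which frees acetate from N-acetylaspartate, by -0.07 ± 0.12, neither past the threshold.

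The structural genes of myelin had smaller differences. Mbp, whose basic protein seals the cytoplasmic faces of the sheath, read 10.39, 10.33, 10.42 and 10.41 in TNFko-labelled stroke arrays, against 10.52, 10.58, 10.55 and 10.43 in TNFko-labelled naive arrays. Cnp, an enzyme of the cytoplasmic channels of myelin, read 10.75, 10.90, 10.83 and 10.79 after stroke and 10.99, 11.03, 10.97 and 11.05 in naive mice with that label. Both genes were lower in every stroke array, yet their differences of -0.13 ± 0.08 (limma, adjusted p = 0.70) and -0.19 ± 0.08 (limma, adjusted p = 0.46) did not pass. The same separation was seen for Ugt8a and for Ppp1r14a, an inhibitor of myosin phosphatase, which makes 4 of 29 members, against 3.07% of all genes. Of the precursor genes, Enpp6, a choline phosphodiesterase of newly forming oligodendrocytes, differed by -0.31 ± 0.13 (limma, adjusted p = 0.51) and Gpr17 by -0.25 ± 0.11 (limma, adjusted p = 0.53). Within the prefix KL76, which has a single stroke array, the median over the 29 members was -0.23, and within KL82 it was -0.10.

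In C57BL/6 mice 0 of 29 members passed the threshold after stroke (limma, adjusted p under 0.05), against 1.68% of all genes, and 4 members had an unadjusted p under 0.05, against 17.1% of all genes. Here 11 of 29 differences were negative, with a median of 0.04, against 51.2% and -0.005 over all genes. Tspan2, a tetraspanin of the oligodendrocyte membrane, read 11.24, 11.40, 11.18 and 11.46 in C57BL/6 stroke arrays, against 11.06, 10.95, 10.93 and 11.11 in C57BL/6 naive arrays. It was the only member higher in every stroke array (5.03% of all genes were), with a difference of 0.31 ± 0.10 (limma, adjusted p = 0.13).

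Ermn, which encodes the cytoskeletal protein ermin of late oligodendrocytes, had the largest difference in C57BL/6 mice. It read 8.72, 8.55, 9.38 and 9.40 in C57BL/6 stroke arrays, against 8.15, 8.51, 8.42 and 8.65 in C57BL/6 naive arrays. Stroke arrays 3 and 4 stood above the rest and stroke array 2 overlapped the naive range, so the difference of 0.58 ± 0.20 had a wide error (limma, adjusted p = 0.15). Mobp, a second basic protein of compact myelin, differed by 0.32 ± 0.12 (limma, adjusted p = 0.20), with stroke arrays at 9.84, 9.68, 10.38 and 10.13 and naive arrays at 9.41, 9.83, 9.85 and 9.67. Gpr17 differed by 0.31 ± 0.11 (limma, adjusted p = 0.14).
The transcription factor gene Olig2, needed for the lineage to form, read 7.56, 7.07, 7.52 and 7.53 in C57BL/6 stroke arrays, against 7.22, 7.19, 7.22 and 7.16 in C57BL/6 naive arrays. Stroke array 2 was below the naive arrays and the others above them. Ppp1r14a had the lowest difference, -0.31 ± 0.17 (limma, adjusted p = 0.36).

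Over both genotype labels together, which gives the most precise value for a change common to them, 0 of 29 members passed the threshold after stroke (limma, adjusted p under 0.05), against 2.8% of all genes, and 3 members had an unadjusted p under 0.05, against 16.4% of all genes. Of the differences 18 of 29 were negative, against 50.8% of all genes, and the median was -0.03. The 95% intervals of the 29 members lay between -0.52 and 0.55 on the log2 scale, 26 of them inside ±0.5. Mbp differed by -0.03 (95% interval -0.14 to 0.08), Mog, an adhesion protein of the outermost myelin surface, by -0.01 (95% interval -0.20 to 0.18), and Pdgfra by -0.04 (95% interval -0.15 to 0.08). Ugt8a and Ppp1r14a had the lowest values, -0.27 each, and Ermn the highest, 0.25. The same arrays registered the response of other cells: of 12 markers of reactive astrocytes 11 rose over both labels, against 1.78% of all genes, with a median of 0.77.

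**Figure D1:**
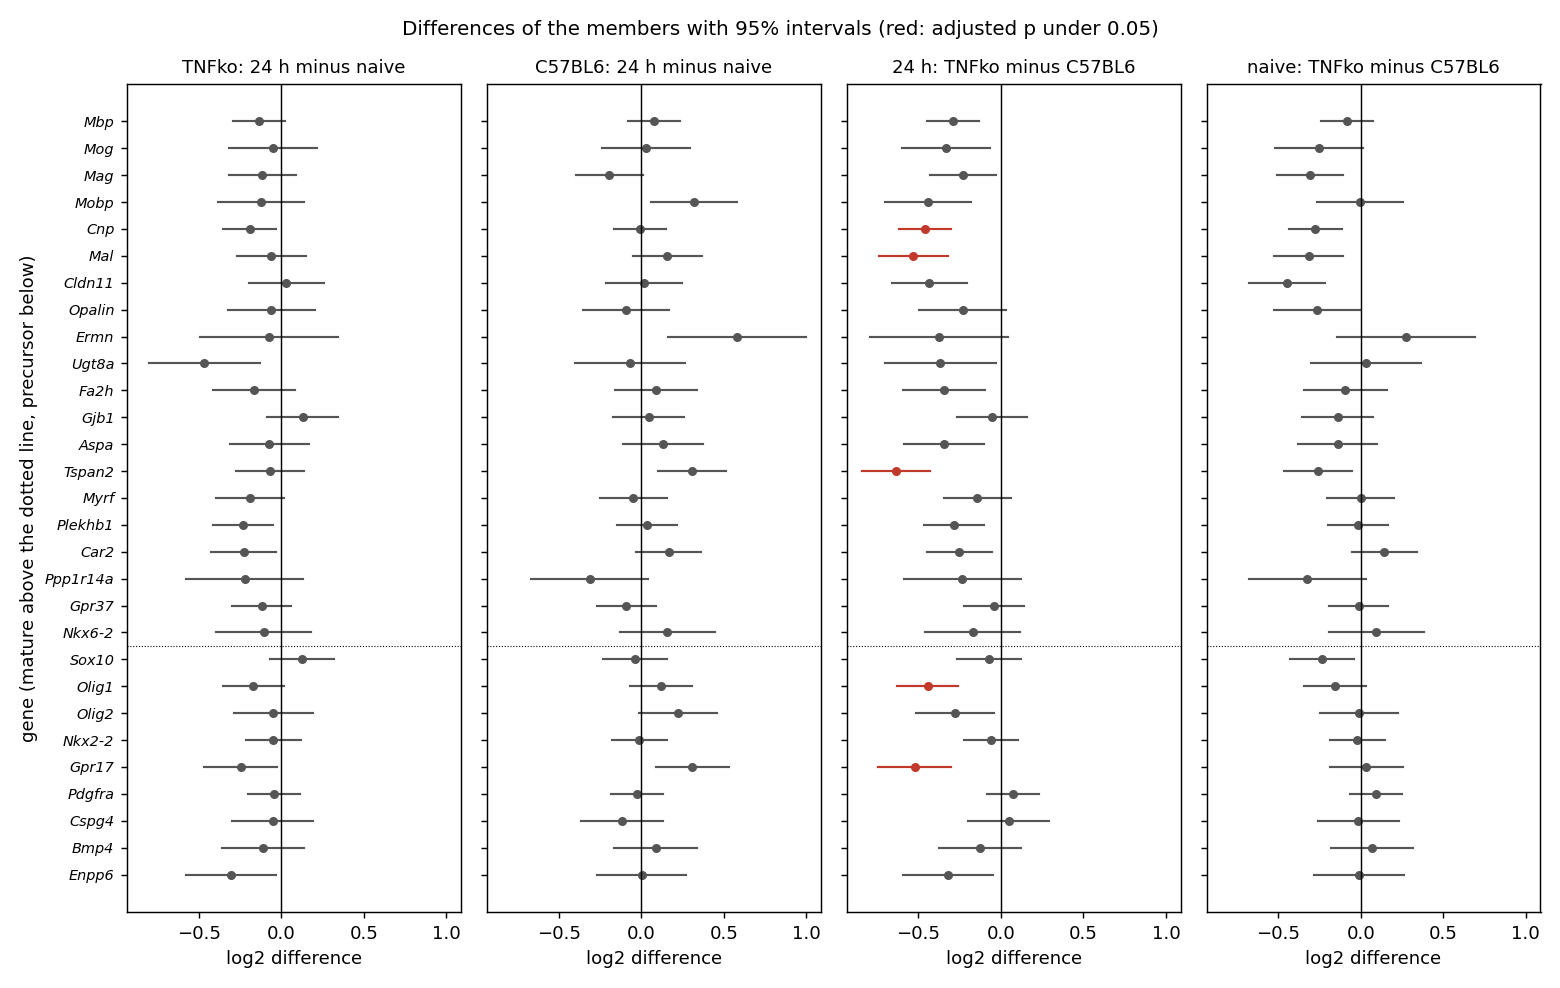
Log2 difference of each of the 29 genes with its 95% interval (x axis) in 4 comparisons, precursor genes under the dotted line and genes past the threshold in red. Both stroke panels have no red point, while the panel of TNFko-labelled against C57BL/6 arrays after stroke has 5, all left of 0.

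The comparison of genotype labels after stroke asks whether the lineage genes differ between mice labelled TNF knockout and C57BL/6 mice once both have had the occlusion. Of 29 members 5 fell and 0 rose in the TNFko-labelled arrays (limma, adjusted p under 0.05), against 0.436% of all genes in either direction and 0.271% lower. They were Tspan2, Mal, Cnp, Olig1 and Gpr17. An unadjusted p under 0.05 was found in 17 of 29, against 11.3% of all genes. The differences of all 20 mature genes were negative, with a median of -0.31, and those of the 9 precursor genes had a median of -0.13, against a median of -0.0075 over all genes. Over the whole list 27 of 29 were negative, against 51.9% of all genes. In 10 of 29 members every TNFko-labelled array lay below every C57BL/6 array, against 2.76% of all genes.

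Of the genes for proteins of the myelin membrane, Tspan2 had the largest decrease. It read 10.39, 10.77, 10.85 and 10.72 in TNFko-labelled stroke arrays, against 11.24, 11.40, 11.18 and 11.46 in C57BL/6 stroke arrays. The groups did not overlap, and the signal fell by 35.7%, a log2 difference of -0.64 ± 0.10 (SE, limma, adjusted p = 0.0030). Mal, a proteolipid that sorts raft lipids and proteins to the myelin membrane, read 9.34, 9.67, 9.75 and 9.58 in TNFko-labelled stroke arrays, against 10.11, 10.06, 10.07 and 10.23 in C57BL/6 stroke arrays. The lowest C57BL/6 array stood above the highest TNFko-labelled array, and the log2 difference was -0.53 ± 0.10 (limma, adjusted p = 0.015). Cnp read 10.75, 10.90, 10.83 and 10.79 in TNFko-labelled stroke arrays, against 11.31, 11.18, 11.24 and 11.38 in C57BL/6 stroke arrays. The arrays of each group lay close together, 10.82 ± 0.06 and 11.28 ± 0.09 (SD, n = 4 each), and it fell by 0.46 ± 0.08 (limma, adjusted p = 0.0050).

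Of the lineage regulators, Olig1, a basic helix-loop-helix transcription factor that acts in differentiation and remyelination, read 8.24, 8.72, 8.39 and 8.45 in TNFko-labelled stroke arrays, against 8.90, 8.83, 8.91 and 8.94 in C57BL/6 stroke arrays. The C57BL/6 arrays were close together, and the TNFko-labelled arrays were spread between array 1 and array 2, all of them lower. Olig1 fell by 0.45 ± 0.09 (limma, adjusted p = 0.024). Gpr17, a receptor that restrains the maturation of committed precursors, read 6.87, 7.02, 6.90 and 6.88 in TNFko-labelled stroke arrays, against 7.43, 7.66, 7.26 and 7.41 in C57BL/6 stroke arrays. It fell by 0.52 ± 0.11 (limma, adjusted p = 0.026).

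The calls rested unequally on single arrays. With each of the 16 arrays left out in turn, Tspan2 and Cnp passed in 16 of 16 fits, Mal in 13, and Olig1 and Gpr17 in 11 each. The count of 5 became 2 without TNFko-labelled stroke array 1, 3 without TNFko-labelled stroke array 3, 2 without TNFko-labelled stroke array 4 and 2 without C57BL/6 stroke array 4. Mal had an adjusted p of 0.063, 0.050 and 0.076 without TNFko-labelled stroke arrays 1 and 4 and C57BL/6 stroke array 4 (limma), with differences of -0.45 to -0.53. Olig1 was lost without TNFko-labelled stroke arrays 1, 3 or 4 or C57BL/6 stroke arrays 3 or 4 (limma, adjusted p from 0.062 to 0.092). Gpr17 was lost without TNFko-labelled stroke arrays 1, 3 or 4 or C57BL/6 stroke arrays 2 or 4 (limma, adjusted p from 0.076 to 0.098). Olig1 also missed the threshold when only the compared groups were fitted (limma, adjusted p = 0.12).
Within prefix KL76 the difference after stroke was -0.93 for Tspan2, -0.78 for Mal, -0.53 for Cnp, -0.66 for Olig1 and -0.57 for Gpr17, from a single array set against the 4 C57BL/6 arrays. Within KL82 it was -0.54 for Tspan2, -0.45 for Mal, -0.44 for Cnp, -0.38 for Olig1 and -0.51 for Gpr17. Within KL82, with 3 stroke arrays, Tspan2 alone passed. The KL76 fit assumes that its lone stroke array varies like the arrays of the other groups, so whether a gene passes there says nothing about the spread within that prefix.

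**Figure D2:**
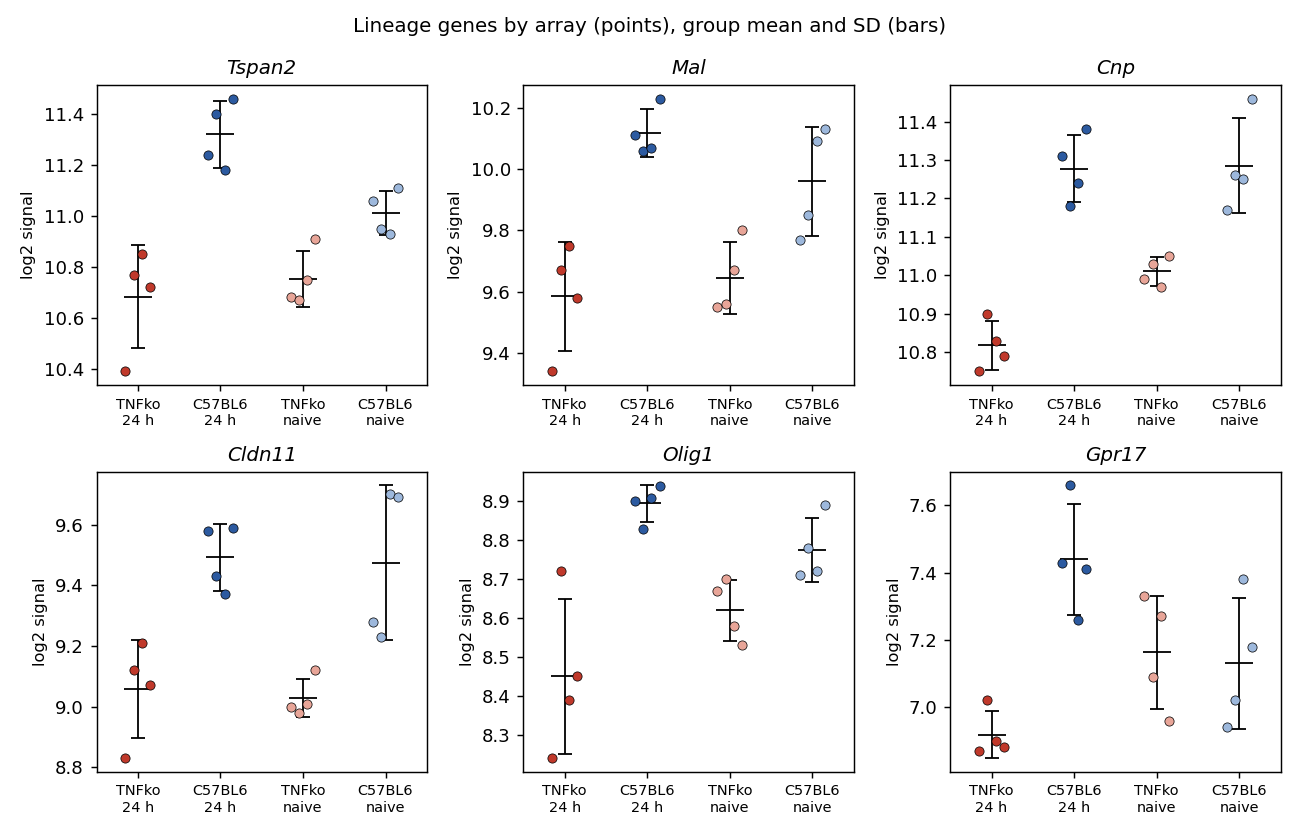
Log2 signal (y axis) of 6 genes on every array (points), with group means and SD (bars), for TNFko-labelled stroke, C57BL/6 stroke, TNFko-labelled naive and C57BL/6 naive arrays. The red stroke points lie below all dark blue stroke points in each panel, and Mal and Gpr17 overlap between the naive groups.

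The other members after stroke differed in the same direction for the most part and did not pass. Cldn11, the claudin of the tight junctions between myelin layers, read 8.83, 9.12, 9.21 and 9.07 in TNFko-labelled stroke arrays, against 9.58, 9.43, 9.37 and 9.59 in C57BL/6 stroke arrays. The groups did not overlap, and the difference was -0.44 ± 0.11 (limma, adjusted p = 0.088). Mbp had 10.39 ± 0.04 in TNFko-labelled and 10.68 ± 0.12 in C57BL/6 stroke arrays (SD, n = 4 each), a difference of -0.29 ± 0.08 (limma, adjusted p = 0.10). Mobp differed by -0.44 ± 0.12 (limma, adjusted p = 0.14), with 9.57 ± 0.06 in TNFko-labelled and 10.01 ± 0.31 in C57BL/6 stroke arrays.
Plekhb1, a membrane-bound protein of oligodendrocytes and photoreceptors, and Mag, an adhesion protein of the innermost myelin layer, also had groups that did not overlap. Plekhb1 differed by -0.28 ± 0.09 (limma, adjusted p = 0.19) and Mag by -0.23 ± 0.10 (limma, adjusted p = 0.38). The remaining mature genes ranged from -0.04 for the receptor gene Gpr37 to -0.38 for Ermn. Mog, which lies on the chromosome of Tnf, 17, with 70 protein-coding genes between them, differed by -0.34 ± 0.13 (limma, adjusted p = 0.32), and it is the only member on that chromosome.

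The precursor genes were not uniform. Enpp6 differed by -0.32 ± 0.13 (limma, adjusted p = 0.36) and Olig2 by -0.28 ± 0.11 (limma, adjusted p = 0.35). Pdgfra, the receptor for platelet-derived growth factor on precursors, read 8.17, 8.22, 8.30 and 8.43 in TNFko-labelled stroke arrays, against 8.16, 8.17, 8.29 and 8.21 in C57BL/6 stroke arrays. The groups overlapped, with a difference of 0.07 (95% interval -0.08 to 0.23). Cspg4 differed by 0.05 (95% interval -0.20 to 0.29), and these were the only members with a positive value. The transcription factor genes Sox10 (-0.08, 95% interval -0.27 to 0.12) and Nkx2-2 (-0.06, 95% interval -0.23 to 0.11) and the ligand gene Bmp4 (-0.13, 95% interval -0.38 to 0.12) had intervals that included 0.

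Markers of other cells differed between the same arrays. Of 11 microglia and macrophage markers 1 fell, against 0.271% of all genes, Cd68 by 0.38 ± 0.08 (limma, adjusted p = 0.034). Of their differences 11 of 11 were negative, against 51.9% of all genes, and the median was -0.25. Their mean deviation from the mean over all arrays was -0.07 to -0.02 in TNFko-labelled stroke arrays and 0.09 to 0.29 in C57BL/6 stroke arrays. Of 9 endothelial markers 1 fell, against 0.271% of all genes, Cldn5, a tight junction gene, by 0.54 ± 0.11 (limma, adjusted p = 0.040). Of their differences 9 of 9 were negative, against 51.9% of all genes, and the median was -0.22. Their mean deviation was -0.11 to -0.02 in TNFko-labelled stroke arrays and 0.06 to 0.23 in C57BL/6 stroke arrays. These genes were named after their values were seen.
In this comparison 0.436% of all genes passed and 11.3% had an unadjusted p under 0.05. Of 10 resting astrocyte markers 0 passed (limma, adjusted p under 0.05, with 2 at an unadjusted p under 0.05), and the median was -0.11. Of 14 neuron markers 0 passed (2 unadjusted), with a median of -0.0075, and of 12 markers of hindbrain, thalamus and cerebellum 0 passed (0 unadjusted), with a median of -0.00375. Of 12 reactive astrocyte markers 0 passed (2 unadjusted), with a median of 0.05, and of 6 Schwann cell markers 0 passed (0 unadjusted), with a median of -0.02. The part of these cell types in the lower lineage signals was not tested.

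**Figure D3:**
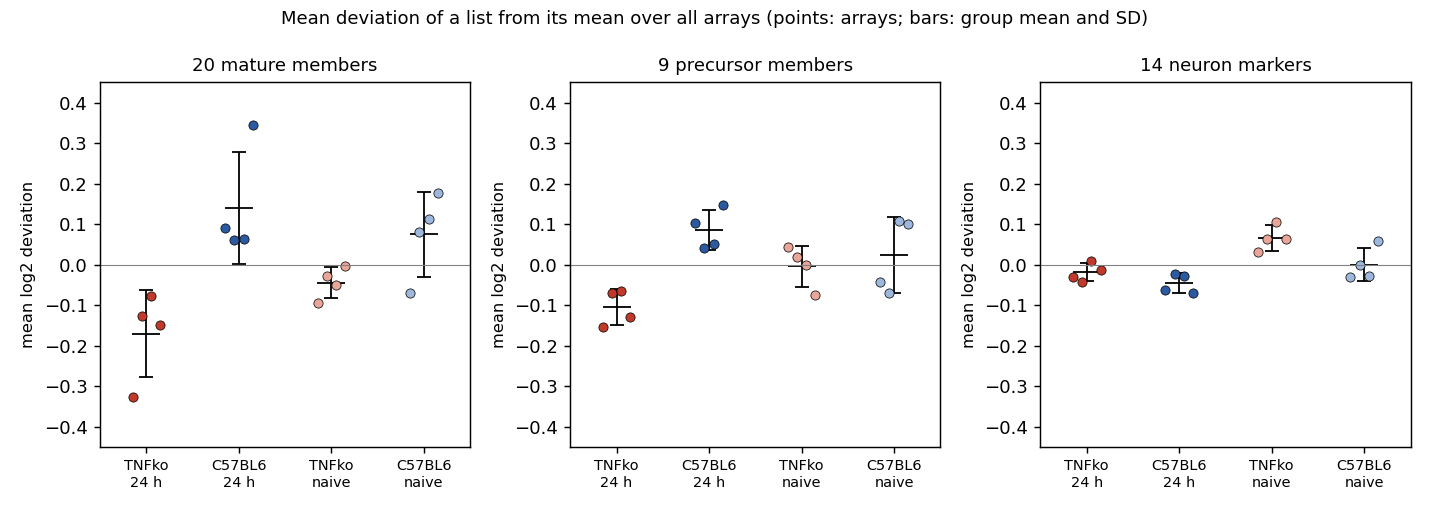
Mean log2 deviation (y axis) of 20 mature genes, 9 precursor genes and 14 neuron markers from their means over all arrays, for each array (points), with group means and SD (bars). For mature genes the TNFko-labelled stroke arrays lie at -0.33 to -0.08 and the C57BL/6 stroke arrays at 0.06 to 0.35, while the neuron markers stay within -0.07 and 0.11 on all arrays.

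In naive mice the comparison of genotype labels asks which of these differences are present without a stroke. Of 29 members 0 passed the threshold (limma, adjusted p under 0.05), against 0.386% of all genes, and 7 members had an unadjusted p under 0.05, against 16.6% of all genes. Of the differences 21 of 29 were negative, against 50.7% of all genes. The median over the 29 was -0.02, that of the mature genes -0.12 and that of the precursor genes -0.01. Cldn11 read 9, 8.98, 9.01 and 9.12 in TNFko-labelled naive arrays, against 9.28, 9.23, 9.70 and 9.69 in C57BL/6 naive arrays. The TNFko-labelled arrays were close together and all lower, and the C57BL/6 arrays formed a lower and a higher pair. The difference was -0.45 ± 0.11 (limma, adjusted p = 0.079), and it passed without C57BL/6 naive array 2.

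Cnp read 10.99, 11.03, 10.97 and 11.05 in TNFko-labelled naive arrays, against 11.17, 11.26, 11.25 and 11.46 in C57BL/6 naive arrays, a difference of -0.28 ± 0.08 (limma, adjusted p = 0.10). Every TNFko-labelled array was lower. Tspan2 (-0.26 ± 0.10, limma, adjusted p = 0.20) and Olig1 (-0.16 ± 0.09, limma, adjusted p = 0.39) were also lower in every TNFko-labelled array. These 3 genes and Cldn11 make 4 of 29 members with groups that did not overlap, against 4.15% of all genes. Mag differed by -0.31 ± 0.10 (limma, adjusted p = 0.14) and Mal by -0.32 ± 0.10 (limma, adjusted p = 0.14). Other members had values near 0 in naive mice: Mobp -0.0025 (95% interval -0.26 to 0.26), Myrf, a membrane-bound transcription factor that drives myelin genes, 0 (95% interval -0.20 to 0.20), and Gpr17 0.03 (95% interval -0.19 to 0.25). Ermn had the highest value, 0.28 ± 0.20.
Within prefix KL76, with 3 naive arrays, the difference was -0.48 for Cldn11, -0.29 for Cnp, -0.37 for Mal and -0.31 for Tspan2. Within KL82, with 1 naive array, it was -0.36 for Cldn11, -0.24 for Cnp, -0.16 for Mal and -0.10 for Tspan2. Olig1 differed by -0.125 within KL76 and -0.245 within KL82. Gpr17 differed by 0.10 within KL76 and -0.17 within KL82, with opposite signs.

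The mean of the naive and the stroke difference, a comparison added after the data had been seen, has a smaller error than either. Of 29 members 6 fell and 0 rose in the TNFko-labelled arrays (limma, adjusted p under 0.05), against 2.62% of all genes in either direction and 1.26% lower, and 16 had an unadjusted p under 0.05, against 19.4% of all genes. Tspan2 fell by 0.45 ± 0.07 (limma, adjusted p = 0.0013), Cldn11 fell by 0.44 ± 0.08 (limma, adjusted p = 0.0042), and Mal fell by 0.42 ± 0.07 (limma, adjusted p = 0.0028). Cnp fell by 0.37 ± 0.05 (limma, adjusted p = 0.00081), Olig1 fell by 0.30 ± 0.06 (limma, adjusted p = 0.015), and Mag fell by 0.27 ± 0.07 (limma, adjusted p = 0.042). In Tspan2, Cldn11 and Cnp all 8 TNFko-labelled arrays lay below all 8 C57BL/6 arrays, against 0.246% of all genes. With each array left out in turn Mag passed in 3 of 16 fits, those without C57BL/6 stroke array 2 or 3 or C57BL/6 naive array 1, and the other 5 genes passed in all 16. Mbp (-0.19 ± 0.05, limma, adjusted p = 0.066), Mog (-0.30 ± 0.09, limma, adjusted p = 0.084) and Gpr17 (-0.25 ± 0.07, limma, adjusted p = 0.084) did not pass. The median was -0.22 for the 20 mature genes, 20 of them negative, and -0.15 for the 9 precursor genes, 7 of them negative. Over all genes it was -0.00875, and 52.6% were negative. Markers of other cells differed between these arrays as well. Of 11 microglia and macrophage markers 2 fell, C1qa, a complement component, by 0.34 ± 0.07 (limma, adjusted p = 0.020) and Tyrobp, a signalling adaptor, by 0.245 ± 0.065 (limma, adjusted p = 0.049), 10 of 11 differences were negative, and the median was -0.17. Of 9 endothelial markers Cldn5 fell, by 0.33 ± 0.08 (limma, adjusted p = 0.034), 5 of 9 differences were negative, and the median was -0.14. Neuron markers went the other way for the most part: 1 of 14 rose (limma, adjusted p under 0.05), against 270 of 19938 genes. Of the 14 differences 4 were negative, and the median was 0.02. C1qa and Tyrobp were named after their values were seen, and the part of these cells in the lower lineage signals was not tested.

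The difference of the stroke changes, the change in TNFko-labelled arrays minus the change in C57BL/6 arrays, tests whether the response to stroke depends on the genotype label. Neither any member nor any other gene passed (limma, adjusted p under 0.05, 0 of 29 members and 0% of all genes), with 7 of 29 members and 7.42% of all genes at an unadjusted p under 0.05. The median over the members was -0.21, with 22 of 29 negative, against -0.005 and 50.9% over all genes. The lowest value was that of Ermn, -0.65 ± 0.28 (limma, adjusted p = 0.64), followed by Gpr17, -0.56 ± 0.15 (limma, adjusted p = 0.43), Mobp, -0.44 ± 0.18 (limma, adjusted p = 0.61), and Car2, a carbonic anhydrase of oligodendrocytes, -0.40 ± 0.13 (limma, adjusted p = 0.54). Gpr17 showed the pattern array by array: 6.87, 7.02, 6.90 and 6.88 in TNFko-labelled stroke arrays against 7.33, 7.09, 7.27 and 6.96 in TNFko-labelled naive arrays, and 7.43, 7.66, 7.26 and 7.41 in C57BL/6 stroke arrays against 6.94, 7.02, 7.38 and 7.18 in C57BL/6 naive arrays. Stroke arrays tended to be below naive ones under the first label and above them under the second, with overlap in both. Under the TNFko label the Gpr17 change was uneven between prefixes. It was -0.36 within KL76, with 1 stroke array, and -0.03 within KL82, with 1 naive array. Cldn11, in contrast, had a difference of the changes of 0.01 (95% interval -0.31 to 0.33). The 95% intervals of the members ran from -1.24 to 0.59, with a median half-width of 0.31. These intervals are not adjusted, and the values of Ermn, Gpr17, Mobp and Car2 exceeded 0.31 without passing. With 4 arrays per group, dependences on the label of that size and above could therefore be missed.

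On single arrays the mature genes deviated in a common direction. On TNFko-labelled stroke array 1, the only one of its group with prefix KL76, 19 of 20 mature genes lay below their mean over all arrays, with a mean deviation of -0.33. On C57BL/6 stroke array 4, 20 of 20 lay above it, with a mean deviation of 0.35. The mean deviation of the mature genes was -0.33 to -0.08 in TNFko-labelled stroke arrays, 0.06 to 0.35 in C57BL/6 stroke arrays, -0.10 to -0.0035 in TNFko-labelled naive arrays and -0.07 to 0.18 in C57BL/6 naive arrays. The stroke groups did not overlap, and the naive groups did. For the precursor genes the stroke groups were again apart, at -0.15 to -0.06 and 0.04 to 0.15, while the naive groups ran from -0.08 to 0.04 under the TNFko label and from -0.07 to 0.11 in C57BL/6 mice.

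**Figure D4:**
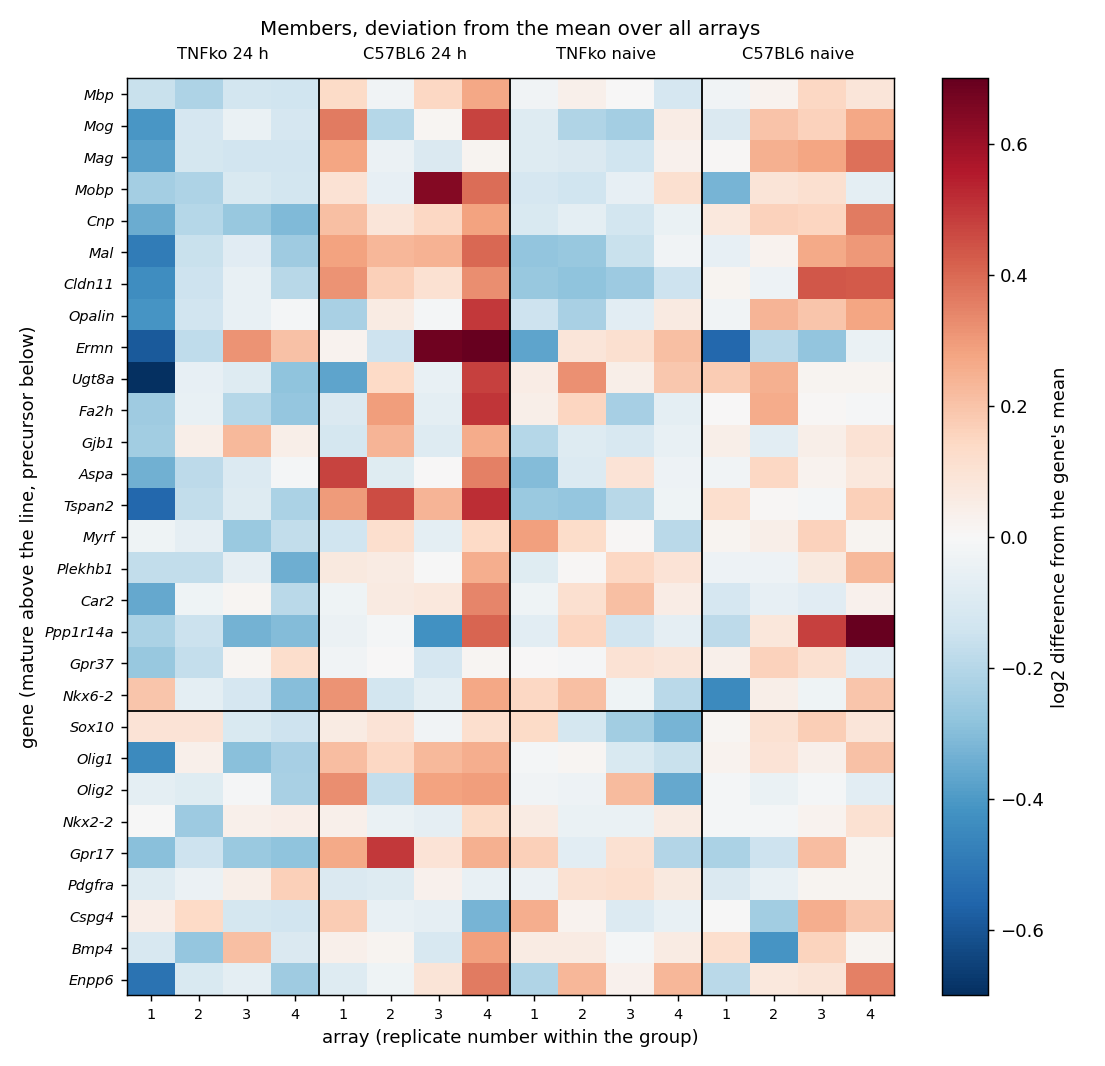
Log2 deviation of the 29 genes (rows) from each gene's mean over all arrays on the 16 arrays (columns, by group). TNFko-labelled stroke array 1 has the most negative column of mature genes and C57BL/6 stroke array 4 the most positive.

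Other genes of mature oligodendrocytes and myelin had differences mostly below 0 between the labels as well. Of 42 listed 40 were tested. After stroke 2 of 40 fell in TNFko-labelled relative to C57BL/6 arrays and 0 rose, against 0.271% of all genes lower. Of the differences 30 of 40 were negative, against 51.9% of all genes, and the median was -0.12. Gsn, an actin-severing protein abundant in oligodendrocytes, read 8.26, 8.44, 8.40 and 8.35 in TNFko-labelled stroke arrays, against 8.83, 8.75, 8.65 and 8.91 in C57BL/6 stroke arrays, and fell by 0.42 ± 0.08 (limma, adjusted p = 0.014). The groups did not overlap, and Gsn fell in naive mice too, by 0.39 ± 0.08 (limma, adjusted p = 0.034). Trf, the iron carrier transferrin made by oligodendrocytes, fell by 0.50 ± 0.11 in naive mice (limma, adjusted p = 0.043). With each array left out in turn, Gsn passed in 14 of 16 fits after stroke, not without TNFko-labelled stroke array 1 (limma, adjusted p = 0.057) or C57BL/6 stroke array 4 (limma, adjusted p = 0.070). In naive mice Gsn passed in 10 of 16 and Trf in 6 of 16.

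Anln had the largest change with stroke on this list in C57BL/6 arrays. It encodes anillin, a scaffold of septins, which line the inner myelin layers. It read 8.15, 8.11, 8.29 and 8.15 in C57BL/6 stroke arrays, against 7.41, 7.57, 7.53 and 7.47 in C57BL/6 naive arrays. The groups were far apart, and Anln rose by 0.68 ± 0.08 (limma, adjusted p = 0.00014). In TNFko-labelled arrays it read 7.85, 7.75, 7.63 and 7.68 after stroke and 7.55, 7.82, 7.5 and 7.51 in naive mice, which overlap, a difference of 0.13 ± 0.08 (limma, adjusted p = 0.75). The difference of the 2 stroke changes, -0.55 ± 0.12, did not pass (limma, adjusted p = 0.37). Between the labels after stroke Anln fell by 0.45 ± 0.08 (limma, adjusted p = 0.015), and it missed the threshold without TNFko-labelled stroke array 3 (limma, adjusted p = 0.061) or 4 (limma, adjusted p = 0.059) or C57BL/6 stroke array 3 (limma, adjusted p = 0.055). Apod, a lipid-binding apolipoprotein of glia, rose by 0.33 ± 0.07 over both labels (limma, adjusted p = 0.012), while Pllp, a proteolipid of myelin (-0.34 ± 0.08, limma, adjusted p = 0.024), Ninj2 (-0.32 ± 0.08, limma, adjusted p = 0.023), Fgfr2, a fibroblast growth factor receptor of myelinating cells (-0.23 ± 0.05, limma, adjusted p = 0.014), and Dscaml1 (-0.25 ± 0.06, limma, adjusted p = 0.034) fell. Over both labels 2 of 40 thus rose, against 1.78% of all genes, and 4 of 40 fell, against 1.03% of all genes. With each array left out in turn, Pllp passed in 12 of 16 fits and Ninj2 in 13.

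Of 30 other precursor and early differentiation genes, 2 fell and 0 rose over both labels after stroke, against 1.03% of all genes lower. They were the proteoglycan gene Cspg5 by 0.23 ± 0.05 (limma, adjusted p = 0.017) and Tmem132d by 0.35 ± 0.07 (limma, adjusted p = 0.010). Kcnj10, the inward rectifier potassium channel of astrocytes and oligodendrocytes, read 8.25, 8.31, 8.2 and 8.36 in TNFko-labelled naive arrays, against 7.23, 7.86, 7.73 and 7.74 in C57BL/6 naive arrays. It was higher in every TNFko-labelled array, by 0.64 ± 0.13 (limma, adjusted p = 0.034), the opposite direction to most members. Of the 30 genes 1 thus rose in naive mice, against 44 of 19938 genes, and 0 passed between the labels after stroke, against 0.436% of all genes. Over both conditions 1 of 30 rose, against 270 of 19938 genes. This was Kcnj10, which passed in all 16 fits with 1 array left out, at 0.51 to 0.62 (limma, largest adjusted p = 0.0046). Of 25 genes of myelin lipid and cholesterol synthesis 2 rose over both labels after stroke, against 1.78% of all genes. They were Elovl1 by 0.34 ± 0.06 (limma, adjusted p = 0.0017) and Cers2 by 0.23 ± 0.06 (limma, adjusted p = 0.029), both of which act in making very long chain lipids. Between the labels after stroke 0 of the 25 passed (limma, adjusted p under 0.05), against 0.436% of all genes. An unadjusted p under 0.05 was found in 7 of 25, against 11.3% of all genes, and their median was 0.06.
Of 18 genes of the paranode, node and axon contact, 2 fell over both labels after stroke, against 1.03% of all genes. They were Lingo1, a neuronal and glial inhibitor of myelination, by 0.27 ± 0.06 (limma, adjusted p = 0.018) and the sodium channel gene Scn8a by 0.26 ± 0.06 (limma, adjusted p = 0.030). Of 44 ligands and other signals to the lineage, 2 rose over both labels after stroke, against 1.78% of all genes. They were the cytokine gene Lif by 0.37 ± 0.09 (limma, adjusted p = 0.027) and the chemokine receptor gene Cxcr4 by 0.35 ± 0.09 (limma, adjusted p = 0.033). Of the same list 4 fell in TNFko-labelled arrays over both conditions, against 1.26% of all genes. They were Id1, Id2 and Id3, inhibitors of basic helix-loop-helix factors, and Tnfrsf21, a death receptor, by 0.23 to 0.38. With each array left out in turn, Kcnj10 passed in 10 of 16 fits in naive mice. Cers2 passed in 8 of 16, Scn8a and Lif in 9 each, Cxcr4 in 6 and Dscaml1 in 6. Id2 passed in 9, Id3 in 12, Lingo1 in 15 and Tnfrsf21 in 4.

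Of 19 genes known to rise in oligodendrocytes of mouse disease models, 8 rose over both labels after stroke and 0 fell, against 1.78% of all genes higher, with a median of 0.28. Reactive astrocytes and other cells express several of them too. Serpina3n, a serine protease inhibitor gene that is also among the reactive astrocyte markers, rose by 1.79 ± 0.14 (limma, adjusted p = 3.2e-07), C4b, a complement component, by 0.54 ± 0.07 (limma, adjusted p = 0.00016), and Socs3, a feedback inhibitor of cytokine signalling, by 0.72 ± 0.08 (limma, adjusted p = 8.0e-06). The others were Atf3, Steap4, Apod, Fkbp5 and Plin4. Steap4 is also among the reactive astrocyte markers and Apod also on the list of other mature genes, so the counts of these lists share genes. With each array left out in turn, Plin4 passed in 4 of 16 fits and Fkbp5 in 15. In TNFko-labelled arrays 4 of 19 rose, against 0.537% of all genes, and of these C4b passed in 5 of 16 such fits. In C57BL/6 arrays 6 of 19 rose, against 1.34% of all genes, and of these Apod passed in 7 of 16, Fkbp5 in 6 and Atf3 in 13. Between the labels after stroke 0 of 19 passed (limma, adjusted p under 0.05), against 0.436% of all genes. An unadjusted p under 0.05 was found in 2 of 19, against 11.3% of all genes, and their median was 0.05.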

How the data were processed

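Per the labels' protocols, total RNA came from frozen brain by Trizol extraction and was prepared with the GeneChip WT Terminal Labeling Kit. The authors deposited log2 signals per probe set with 2 decimals and like medians on all arrays. GCOS, GCRMA, Partek and RMA are named, without version or role, in the submitters' processing notes. Array summaries of this kind usually understate large ratios. No detection calls were used, so a dim probe set cannot be told from background.

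Of 28944 probe sets, 21789 had a single gene symbol in GEO's platform annotation, 1621 had several and 5534 had none. The brightest such probe set stood for each of 999 genes that had more than 1, which left 19938 genes, dim ones included. The number of arrays limits the precision. Identical values were found for 0 pairs of arrays.

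Group means were estimated with lmFit and eBayes (limma 3.58.1, R 4.3.3) from 16 arrays in 4 groups, with 12 residual and 7.52 prior degrees of freedom. All tests were two-sided, p-values were adjusted by Benjamini-Hochberg over the 19938 genes of a comparison, and the threshold was 0.05. The 95% intervals are those of the moderated fit and are not adjusted. The fit was tested on simulated data. Of 7 comparisons, the mean of both genotype differences was added after the data had been seen. Python 3.11.15 (pandas 2.3.3, numpy 2.4.6) served for tables and matplotlib 3.10.9 for figures.

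The members, the lists around them (277 of 291 entries tested) and the tests were chosen with earlier results of these data known. Every member could be named. Of each other list, up to 6 genes past the threshold with the smallest p could be named, or else the 2 with the smallest p after stroke. This limit was exceeded for the other mature genes and for the genes known to rise in disease models, with more than 6 named from each. Cd68, Cldn5, C1qa and Tyrobp were named after their values were seen. Id1, Id2, Id3 and Tnfrsf21 passed only in the comparison added after the data had been seen, which the naming rule did not cover. Upstream sequences are from RefSeq (GRCm38.p6), and motifs were matched letter by letter.

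The alternatives were quantile normalization, median centring, dropping the dimmest 33.3% of genes, averaging the probe sets of a gene, trended and robust variances, fitting just the groups compared, a replicate block, a term for the name prefix, and leaving out each array in turn. Fits with the KL76 or the KL82 arrays as the sole TNFko-labelled ones were added after the data had been seen.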

Additional observations from a re-analysis of the deposited data

Results flagged for a closer look

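In 6 of 116 sets of 4 values (29 genes in 4 groups), 1 array stood apart: its gap to the nearest of the others, divided by the range of the group, was above the 95% critical value of Dixon's test. Chance gives about 1 in 20, close to this share. In TNFko-labelled stroke arrays Mag was lowest on array 1, at 9.37 with the next at 9.62 (ratio 0.962), and Nkx2-2 was lowest on array 2, at 6.07 with the next at 6.32 (ratio 0.833). In C57BL/6 stroke arrays Olig2 was lowest on array 2, at 7.07 with the next at 7.52 (ratio 0.918). In TNFko-labelled naive arrays Bmp4 was lowest on array 3, at 6.31 with the others at 6.38 (ratio 1). In C57BL/6 naive arrays Fa2h was highest on array 2, at 7.75 with the next at 7.5 (ratio 0.926), and Myrf was highest on array 3, at 7.44 with the next at 7.32 (ratio 0.857). None of these genes passed the threshold in the group comparisons, except Mag over both conditions.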

How the results depend on the processing

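Of 501 alternative values for the counts of members past the threshold and the medians of the lists, 480 stayed on the same side or within the replicate spread, 21 did not, and 0 called values changed sign, though medians near 0 did. The count of 5 members lower in TNFko-labelled than in C57BL/6 arrays after stroke was 1 with only the KL76 arrays and 1 with only the KL82 arrays (Tspan2 in both), where fewer arrays were fitted and the lone KL76 stroke array is assumed to vary like the other groups, and 2 to 5 with 1 array left out. The count of 0 between labels in naive mice was 1 (Cldn11) with trended and robust variances and 1 without the dimmest 33.3% of genes, where fewer genes were tested, and 0 to 1 with 1 array left out. With only the KL76 arrays the medians of the mature genes were -0.235 for stroke in TNFko-labelled arrays and -0.48 between labels after stroke, and that of the precursor genes for stroke was -0.147. With only the KL82 arrays the median of the precursor genes between labels in naive mice was -0.10. With 1 array left out, the median of the precursor genes ran from -0.22 to -0.057 between labels after stroke, from -0.026 to 0.0925 for stroke in C57BL/6 arrays and from -0.27 to -0.07 for the difference of the stroke changes. Of 1372 alternative values for single genes 1119 kept their call, 253 lost it and 0 reversed.

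Replicate numbers are shared between the groups. Same-numbered arrays correlated at -0.07 to 0.34 in their deviations from the group means, over 0.1 in 8 of 16 pairs, so the numbers were not taken to pair the arrays. With the replicate block the count for stroke in C57BL/6 arrays was 1 (Ermn) in place of 0, and 559 in place of 334 of all genes passed. In naive mice 141 in place of 77 of all genes passed between the labels. The cause of these differences was not tested.

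Over all genes, counts moved by more than 1.5 times under other settings too. Between labels after stroke 87 genes passed, against 162 with trended and robust variances, 164 without the dimmest 33.3%, 46 with the compared groups alone, 11 with only the KL76 arrays and 49 with only the KL82 arrays. Between labels in naive mice 77 passed, against 185 without the dimmest 33.3%, 51 with the compared groups alone, 21 with only the KL76 arrays and 7 with only the KL82 arrays. For stroke in C57BL/6 arrays 334 passed, against 516 with trended and robust variances, 536 without the dimmest 33.3% and 98 with the compared groups alone. For stroke in TNFko-labelled arrays 128 passed, against 72 with the prefix term, 18 with only the KL76 arrays and 2 with only the KL82 arrays. Over both labels 559 passed for stroke, against 332 with the prefix term, and 0 members passed in either of these prefix fits. For the difference of the stroke changes 0 passed, against 1 with the replicate block and 4 with trended and robust variances, 0 of them members. With 1 array left out, the counts ran from 47 to 120 between labels after stroke, from 23 to 138 in naive mice, from 252 to 620 over both conditions (522 with all arrays), from 69 to 145 for stroke in TNFko-labelled arrays, from 107 to 639 for stroke in C57BL/6 arrays and from 369 to 629 for stroke over both labels. The cause was not tested.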
